A study of Mus musculus with 4 samples.

Results

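The genes described here encode the ATG8 proteins, which coat the forming autophagosome, and the receptors that tie cargo to them. They were taken as every probe set whose annotated gene symbol was 1 of 10 named members, namely the ATG8 genes Map1lc3a, Map1lc3b, Gabarap, Gabarapl1 and Gabarapl2, the cargo receptor genes Sqstm1, Nbr1 and Optn, and the mitophagy receptor genes Bnip3 and Bnip3l. The members were chosen with earlier results of these data known, and the rule itself used no measured value. It found 13 probe sets of 8 members among the 22690 probe sets of the array. Optn had no probe set in the annotation used here. The 3 probe sets that list Bnip3l also list its pseudogene Bnip3l-ps, so they were kept apart from the 13 and are described on their own.

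Total RNA came from the livers of 4 wild-type mice, C57/BL6 in background and 1 month old, and each was hybridised to its own Affymetrix array. By title and treatment label, 2 mice were controls and 2 were starved for 24 h, each named a biological replicate. The description label calls the starved mice injected and the controls not injected, and what was injected is not stated. The sex of the mice, the time of day and how the controls were fed are likewise not stated in the labels. The values are log2 RMA signals, which give 1 summary per probe set, and each change is the mean of the starved arrays less that of the controls. An increase of 1 on this scale is a doubling of signal. Signals of different probe sets cannot be set against each other as amounts of RNA.

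Autophagy delivers cytoplasm and organelles to the lysosome, and in liver it is known to supply amino acids and lipids during fasting. ATG8 proteins are ubiquitin-like. A protease trims them, and a conjugation cascade attaches them to phosphatidylethanolamine in the autophagosome membrane, where they help it grow and bind receptors that carry an LC3-interacting motif. Members of the LC3 branch are best known for expansion of the membrane and those of the GABARAP branch for later maturation. Sequestosome 1, NBR1 and optineurin recognise ubiquitin on cargo, whereas BNIP3 and BNIP3L sit in the outer mitochondrial membrane. Conjugation and degradation of these proteins are not visible in RNA signals.

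With the probe sets of a gene averaged, Bnip3 and Map1lc3b had the largest differences between starved and control livers among the 8 measured members. Bnip3 was 1.79-fold higher, taken between means of log2 signals, and the 4 Map1lc3b probe sets were 1.18-fold to 1.39-fold higher, with both starved arrays above both control arrays in each. Gabarap ran the other way, with a fold of 0.850. The cargo receptors Sqstm1 and Nbr1 had folds of 1.02 to 1.04. None of the 13 probe sets passed the test over all probe sets, with limma adjusted p-values from 0.230 to 0.976.

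The arrays as a whole set the scale for these values. Of 22626 probe sets tested, 4 were higher and 9 lower at an adjusted p under 0.05 in limma. Leaving out an array changed that count of 13, to 57 for control 1, to 17 for control 2, to 2 for starved 1 and to 18 for starved 2. Control 2 stood apart in acute phase genes, whose mean was 12.32 on it and 11.21 to 11.43 on the other arrays. It was also the lowest array for endothelial markers, at 7.09 against 7.48 to 7.70, and the highest for neutrophil markers, at 6.20 against 5.43 to 5.77, and for Kupffer cell and macrophage markers, at 9.27 against 8.91 to 9.10. On starved 1 the 3′ actin probe set exceeded the 5′ by 2.06, and on the others by 1.76 to 1.85. Markers of hepatocytes had mean signals of 13.46 to 13.58 on every array, with 8 of 10 genes measured and 0 of 16 probe sets at an unadjusted p under 0.05 in limma. Some read near the arrays' maxima of 15.43 to 15.47, such as Alb at 15.21 to 15.30, whereas the probe sets of Hnf4a read 6.43 to 13.39. Tat read 13.65 on starved 1 and 12.41 on starved 2. Marker lists of erythroid cells, cholangiocytes and adipocytes were higher on both starved arrays than on both controls, at means of 5.71 to 5.78 against 5.48 to 5.66, of 5.05 to 5.26 against 4.87 to 4.95 and of 4.76 to 4.80 against 4.57 on each control. The mean of the pancreas acinar list was lower, at 6.21 to 6.36 against 6.40 to 6.49. Of its 7 probe sets, 4 had positive and 3 negative changes, with a median of 0.02. The largest change was that of Cela1, at -1.31. For adipocytes 3 of 5 genes were measured, each with 1 probe set, and all 3 had both starved arrays above. Of these, Adipoq read 3.51 to 3.73 and Lep 3.70 to 4.06, below each array's lower quartile of 5.08 to 5.13. In the cholangiocyte list Sox9 had changes of 0.71 and 0.48, and the remaining probe sets had changes of 0.02 to 0.21. Among the latter, Cftr read 3.12 to 3.93 and Krt7 4.45 to 4.77, also below each array's lower quartile. The part of these marker lists in the results below was not tested. In RNA of a whole liver, a change in the number of cells of a type and a change in RNA per cell cannot be told apart.

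The promoters of the 2 members with the smallest p-values, Bnip3 and Map1lc3b, and of Gabarap, which ran the other way, are shown because these genes carry the pattern. Each line gives the 250 bases before the annotated start, 5′ to 3′ on the gene's strand, from RefSeq on GRCm38.p6. The Bnip3 window is chr7:138909507-138909756 on the minus strand, that of Map1lc3b is chr8:121590188-121590437 on the plus strand and that of Gabarap is chr11:69991120-69991369 on the plus strand. Capitals mark every match, on either strand, to the 4 motifs searched. The first was ACGTG, a form of the core of the hypoxia response element. The form GCGTG was not searched. The second was the E-box CACGTG, which contains the first and is the centre of the element bound by TFEB. The others were the FOXO element, searched as GTAAACA alone and in no other form, and the core of the antioxidant response element, TGACNNNGC.
Bnip3: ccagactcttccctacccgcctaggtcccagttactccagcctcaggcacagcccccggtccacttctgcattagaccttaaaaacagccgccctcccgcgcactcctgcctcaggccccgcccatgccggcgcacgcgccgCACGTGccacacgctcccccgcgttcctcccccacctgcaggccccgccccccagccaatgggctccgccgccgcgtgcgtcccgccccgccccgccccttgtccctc
Map1lc3b: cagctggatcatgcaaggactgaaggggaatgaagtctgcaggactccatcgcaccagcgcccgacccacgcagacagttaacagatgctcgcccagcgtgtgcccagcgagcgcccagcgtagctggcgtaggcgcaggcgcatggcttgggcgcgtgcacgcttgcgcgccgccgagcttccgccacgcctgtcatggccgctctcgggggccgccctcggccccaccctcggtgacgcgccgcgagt
Gabarap: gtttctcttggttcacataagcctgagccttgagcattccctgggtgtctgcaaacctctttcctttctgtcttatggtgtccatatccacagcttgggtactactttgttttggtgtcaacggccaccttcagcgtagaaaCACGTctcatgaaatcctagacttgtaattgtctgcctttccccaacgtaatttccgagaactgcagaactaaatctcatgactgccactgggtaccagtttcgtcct

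The Bnip3 window held a single CACGTG, at bases 108 to 103 before the start, and thus ACGTG on both strands. CACGTG occurred in 6.02% of 32851 promoter windows of that length. BNIP3 is a textbook target of hypoxia-inducible factors. The Gabarap window held ACGTG once, at bases 108 to 104 before the start on the opposite strand, a motif found in 16.6% of windows. None of the 4 motifs searched was found in the Map1lc3b window. RefSeq windows were at hand for 8 of the 10 members, in 9 windows, of which 4 held ACGTG and 1 held CACGTG. The FOXO element in the form GTAAACA matched 0 of the 9, against 3.17% of all windows, and the antioxidant core 0 of the 9, against 10.2%. These matches describe letters in a window and say nothing of binding.

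Map1lc3b encodes LC3B, the form most used as a marker of autophagosomes, and was measured by 4 probe sets. On 1415930_a_at the log2 signal was 11.33 and 11.48 on the control arrays and 11.96 and 11.80 on the starved arrays. Both starved arrays were above both controls, and the gap between groups exceeded the gaps within them. The change was 0.47 (95% interval 0.16 to 0.79, limma, unadjusted p = 0.0106, adjusted p = 0.272).

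The same order held on the other Map1lc3b probe sets. Signals on 1415929_at were 10.52 and 10.69 in control liver against 10.88 and 10.96 in starved liver, a change of 0.31 (limma, unadjusted p = 0.0464, adjusted p = 0.427). On 1415928_a_at they were 11.59 and 11.78 against 11.92 and 11.93, a change of 0.24 (limma, unadjusted p = 0.0998). The dimmest, 1428024_at, read 5.86 and 6.08 against 6.27 and 6.50, below each array's median of 6.71 to 6.74, with a change of 0.42 (limma, unadjusted p = 0.0307). In all 4 the groups were separated. The 4 probe sets read 1 transcript in the same RNA and are not independent. As the mean of its 4 probe sets, Map1lc3b read 9.82 and 10.01 in control liver and 10.26 and 10.30 in starved liver, a change of 0.36 ± 0.11 (SE, n = 2 per group). That change did not pass over 12393 genes, with an adjusted p = 0.326 in limma.

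Map1lc3a encodes LC3A, the close relative of LC3B. Its signals were 8.91 and 8.78 on the control arrays and 8.99 and 9.06 on the starved arrays. The starved arrays lay just above the controls, with a change of 0.18 (95% interval -0.11 to 0.48, limma, adjusted p = 0.630).

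**Figure D1:**
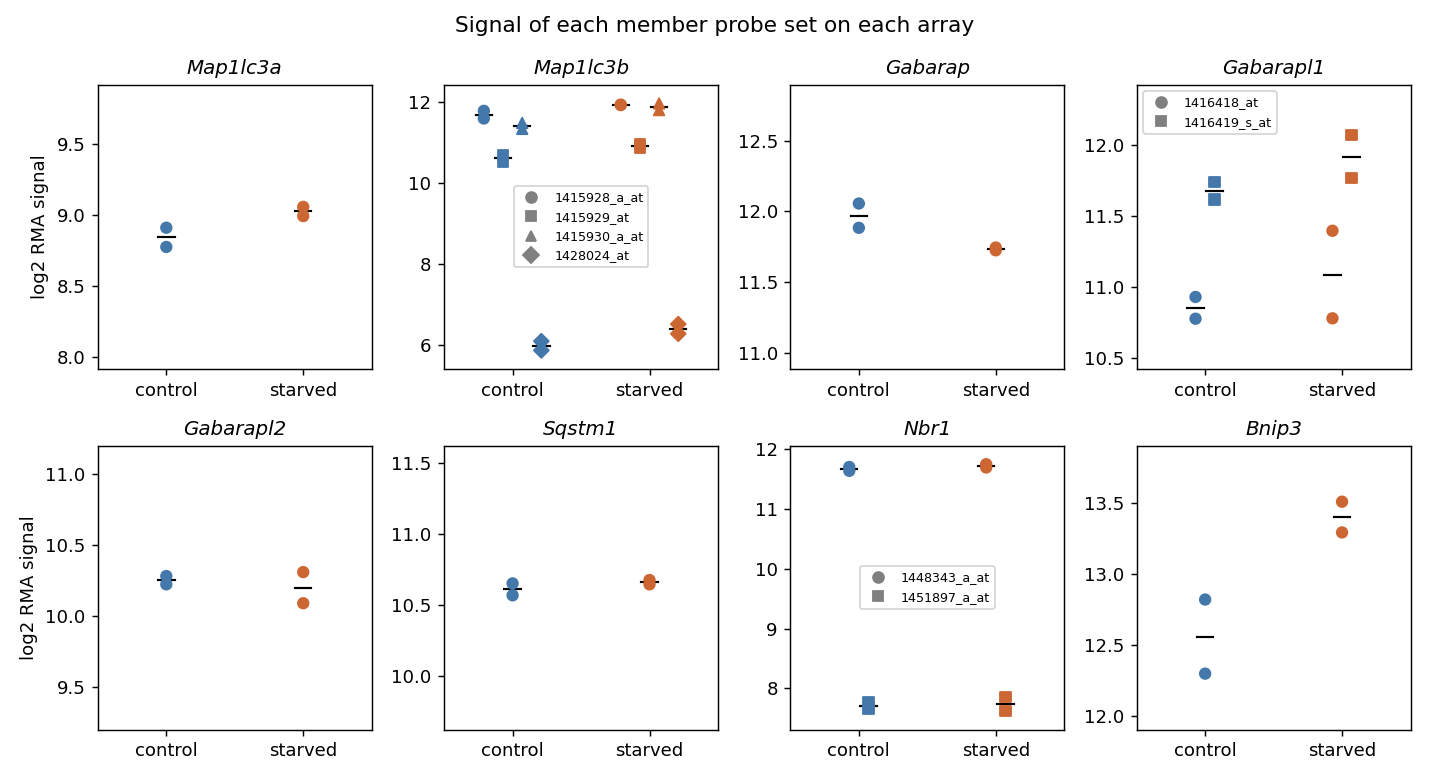
Log2 RMA signal (vertical axes, separate scale per gene) of each probe set of the 8 measured members on the 2 control (blue) and 2 starved (orange) arrays. Each point is 1 array, marker shapes are probe sets and short black bars are group means. Bnip3 runs from 12.30 and 12.82 in control liver to 13.29 and 13.51 in starved liver, all 4 Map1lc3b probe sets have both starved points above both controls, and the Sqstm1 points overlap.

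The GABARAP branch did not share 1 direction. Gabarap itself read 11.89 and 12.06 on the control arrays and 11.75 and 11.73 on the starved arrays. Both starved values were below both controls, and the starved pair differed by only 0.02. The change was -0.23 (95% interval -0.53 to 0.07, limma, adjusted p = 0.532).

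Gabarapl1 encodes GABARAPL1, a member of the branch often studied as a FOXO-responsive gene in wasting muscle, and its signal was high on 1 starved array. On 1416418_at the values were 10.78 and 10.93 in control liver and 10.78 and 11.40 in starved liver, so starved 1 sat at the level of control 1 and only starved 2 stood above. The second probe set, 1416419_s_at, read 11.74 and 11.62 against 11.77 and 12.07, with starved 2 again the highest. The changes were 0.23 and 0.24 (limma, adjusted p = 0.762 and 0.600). The gap between the 2 starved arrays was 0.62 on the first probe set and 0.30 on the second, larger than either change. Without starved 2 the changes were -0.074 and 0.089, and without starved 1 they were 0.54 and 0.39. The second carries the suffix _s_at, which marks probes that may hybridise to more than 1 transcript.

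Gabarapl2 encodes GATE-16, known also from transport within the Golgi. It read 10.28 and 10.23 in control liver and 10.09 and 10.31 in starved liver. The starved values lay on either side of the controls, with a change of -0.05 (95% interval -0.37 to 0.27, limma, adjusted p = 0.938).

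The cargo receptors showed the narrowest differences. Sqstm1 encodes p62, which binds ubiquitin and LC3 and is itself degraded by autophagy. It read 10.57 and 10.65 on the control arrays and 10.65 and 10.68 on the starved arrays. The groups overlapped and the change was 0.05 (limma, adjusted p = 0.931), with a 95% interval of the fold from 0.853 to 1.26. A change of that range or smaller is not resolved by 2 arrays a group.

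Nbr1 encodes a receptor built like p62, which also serves the removal of peroxisomes. On 1448343_a_at it read 11.70 and 11.64 against 11.75 and 11.69, and on 1451897_a_at 7.77 and 7.66 against 7.62 and 7.86. The groups overlapped on both, and on the second the starved values lay on either side of the controls. The changes were 0.05 and 0.03 (limma, adjusted p = 0.930 and 0.976), with fold intervals of 0.853 to 1.26 and 0.810 to 1.28.

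Bnip3 encodes a BH3-related protein of the outer mitochondrial membrane that binds LC3 and GABARAP proteins. Its 1 probe set read 12.82 and 12.30 on the control arrays and 13.51 and 13.29 on the starved arrays. Both starved values were above both controls, and the controls differed from each other by 0.52. The change was 0.84 ± 0.20 (SE, n = 2 per group, 95% interval 0.35 to 1.33), or 1.79-fold with a 95% interval of 1.28 to 2.52. It did not pass over all probe sets (limma, unadjusted p = 0.00588, adjusted p = 0.230). An exact permutation test of 2 against 2 arrays cannot go below a two-sided p of 0.333, the value it gave here. Leaving out control 1 gave a change of 1.10, control 2 gave 0.58, starved 1 gave 0.73 and starved 2 gave 0.95, where adjusted p-values in limma ran from 0.0989 to 0.691. Control 2, the lower control for Bnip3, was also the array with high acute phase, neutrophil and Kupffer cell signals and low endothelial signals. Endothelial markers, with 8 of 8 genes measured, differed by 0.61 between the controls in the same direction as Bnip3. Stellate cell and fibroblast markers, with 8 of 8 genes measured, differed by 0.43 in that direction. Their means were 7.17 on control 1, 6.73 on control 2, and 6.75 and 6.79 on the starved arrays. Not every endothelial probe set differed in this way. Those of Lyve1 read 6.64 and 5.85 on each control, with changes of 1.81 and 1.09 in starved liver (limma, adjusted p = 0.106 and 0.109). The part of these signals in the Bnip3 result was not tested.

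The 3 probe sets shared by Bnip3l and Bnip3l-ps could not be assigned to the receptor gene alone. BNIP3L, also called NIX, is known for clearing mitochondria from maturing red cells. On 1416922_a_at they read 10.84 and 10.70 in control liver and 11.20 and 10.82 in starved liver. On 1416923_a_at they read 10.48 and 10.25 against 10.81 and 10.57, and on 1448525_a_at 8.60 and 8.64 against 8.63 and 8.88. Starved values lay above both controls on the second alone. The changes were 0.24, 0.33 and 0.14, with adjusted p-values of 0.637, 0.471 and 0.777 in limma. Erythroid markers, of which 5 of 8 genes were measured, had 2 of 8 probe sets higher at an unadjusted p under 0.05 in limma, both of Slc4a1, with changes of 0.90 and 0.33. On another probe set Slc4a1 had a change of 0.02. Klf1 had a change of 0.37 and Epb42 of 0.12 and -0.02. Alas2, which starts heme synthesis in red cells, was at -0.27. The globin gene Hba-a1, at -0.05, read 4.33 to 4.44, below each array's lower quartile of 5.08 to 5.13. The part of the erythroid markers in the values of the shared probe sets was not tested.

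**Figure D2:**
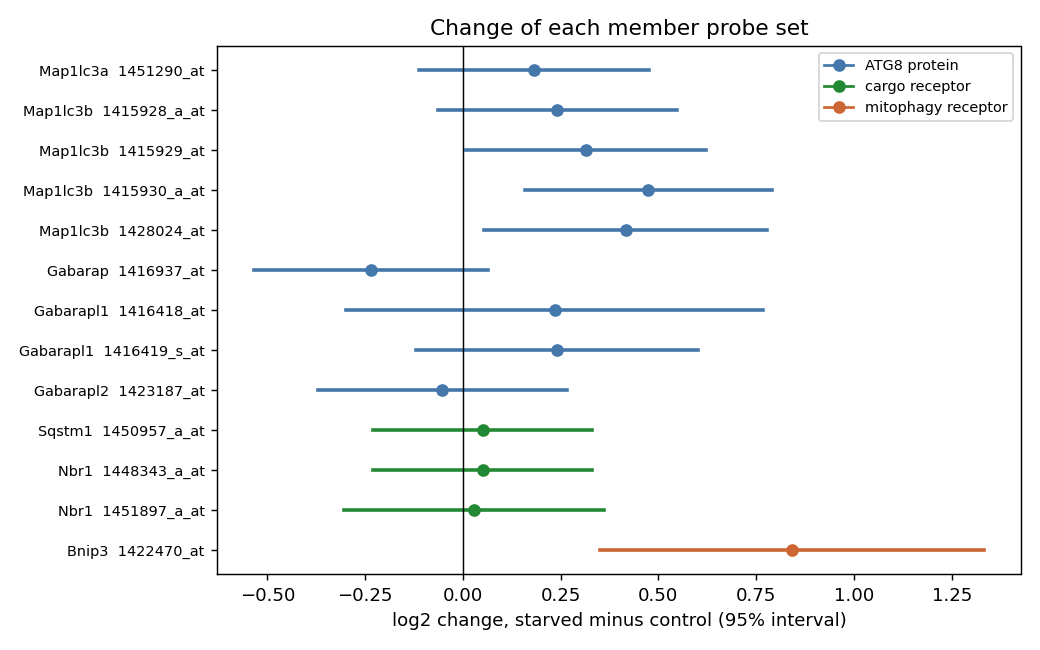
Log2 change, starved minus control, of the 13 member probe sets (points) with 95% intervals from limma (bars), coloured by role. The intervals of Bnip3 (0.35 to 1.33) and of the Map1lc3b probe set 1415930_a_at (0.16 to 0.79) lie above 0 and overlap each other, while those of Sqstm1 and Nbr1 are centred near 0.

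Ordered by change, Bnip3 came first, then Map1lc3b, Gabarapl1, Map1lc3a, Sqstm1, Nbr1, Gabarapl2 and Gabarap, with the probe sets of a gene averaged. Differences between neighbours in that order were not tested. In size, the change exceeded the larger gap within a group for 7 of 13 member probe sets, namely Bnip3, the 4 of Map1lc3b, Map1lc3a and Gabarap, against 29.6% of all probe sets. Of these 7, 6 were higher in starved liver, against 14.9% of all probe sets. The groups did not overlap in 8 of 13 member probe sets, 7 with the starved arrays above and 1 below, against 41.9% of all probe sets in either direction 21.3% with the starved arrays above and 20.6% with them below. Since 4 of the 7 read Map1lc3b, these shares rest on few genes.

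Counted by the test, 0 of 13 member probe sets passed at an adjusted p under 0.05 in limma, where 0.0575% of all probe sets did. At an unadjusted p under 0.05 there were 4, all higher, namely Bnip3 and 3 probe sets of Map1lc3b, against 11.5% of all probe sets in either direction and 5.42% higher. The count of 4 was 1 when control 1 was left out, 4 for control 2, 3 for starved 1 and 2 for starved 2. It covers 2 of 8 measured genes. The median change was 0.23 over the members and 0.00 over all probe sets. By role the medians were 0.24 over 9 ATG8 probe sets and 0.05 over 3 cargo receptor probe sets. With 1 array left out the members' median was 0.16 (control 1), 0.18 (control 2), 0.25 (starved 1) and 0.089 (starved 2). On 1 probe set per gene it was 0.12.

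**Figure D3:**
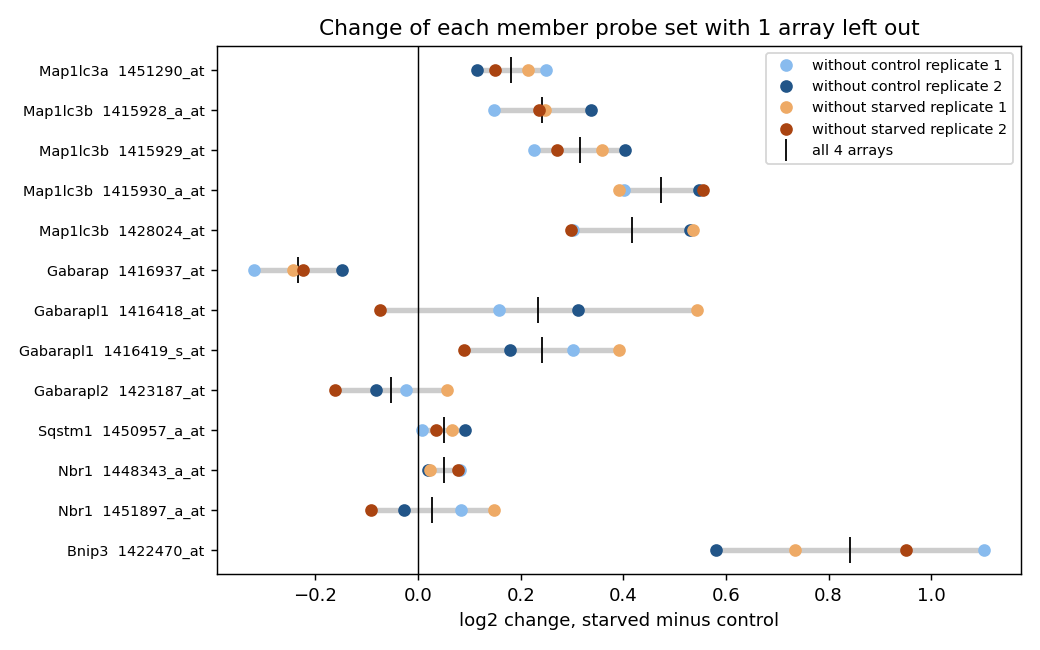
Log2 change of each member probe set with all 4 arrays (black ticks) and with each array left out in turn (coloured points, grey bars for their range). Bnip3 ranges from 0.58 to 1.10 and Map1lc3b 1415930_a_at from 0.39 to 0.56, while Gabarapl1 1416418_at runs from -0.074 to 0.54 and crosses 0.

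The other genes of the pathway were read from lists. At an unadjusted p under 0.05 in limma, 5.42% of all probe sets were higher and 6.04% lower, against which the counts below can be read. In the conjugation machinery that attaches ATG8 proteins to lipid, with 8 of 11 genes measured, 0 of 16 probe sets passed in limma, 1 was higher and 1 lower at an unadjusted p under 0.05, and the median change was 0.14. Atg7, the E1-like enzyme that activates ATG8 proteins, read 7.76 and 7.86 in control liver and 8.26 and 8.06 in starved liver on 1428611_at, a change of 0.35 (limma, adjusted p = 0.397). Atg4b, the protease that trims and releases them, read 7.87 and 8.07 against 7.53 and 7.64, a change of -0.38 (limma, adjusted p = 0.356). The groups were separated for both, in opposite directions, and neither passed. Of initiation and nucleation genes, 20 of 22 were measured, and 0 of 39 probe sets passed in limma, with 0 higher and 3 lower at an unadjusted p under 0.05 and a median of -0.01. Tmem41b, a lipid scramblase of the endoplasmic reticulum, had a change of -0.49 and Wdr45b, a phosphoinositide-binding protein, of -0.38 (limma, adjusted p = 0.306 and 0.336).

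Receptors and adaptors outside the members, with 18 of 21 genes measured, had 0 of 32 probe sets past the limma test, 5 higher and 2 lower at an unadjusted p under 0.05 and a median of 0.12. Their changes ran from -0.62 to 1.08, so the highest exceeded the 0.84 of Bnip3. The genes named here are those of smallest p. Ncoa4, the receptor for ferritin, read 8.56 and 8.42 in control liver and 9.19 and 8.90 in starved liver, a change of 0.56 (limma, adjusted p = 0.260). Sec62, a translocon protein that also serves as a receptor for the endoplasmic reticulum, read 8.18 and 8.31 against 7.43 and 7.82, a change of -0.62 (limma, adjusted p = 0.268). Over these 3 lists together, 24 of 87 probe sets had both starved arrays above and 12 below, where 21.3% of all probe sets had them above and 20.6% below, and the median was 0.06.

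Transcription factors known to act on autophagy genes, with 17 of 19 measured, had 0 of 34 probe sets past the limma test and 4 higher at an unadjusted p under 0.05. Foxo1, restrained by insulin, had a change of 0.46, and Zkscan3, a repressor of autophagy genes, of 0.43 (limma, adjusted p = 0.257 and 0.263). Targets of hypoxia-inducible factors, a list of 20 genes from which Bnip3 was left out, all measured, had 0 of 42 probe sets past the limma test, with 6 higher and 9 lower at an unadjusted p under 0.05 and a median of 0.06. The prolyl hydroxylase subunit P4ha2 and the stress gene Ndrg1 each had a change of -0.85 (limma, adjusted p = 0.103 and 0.106). Changes in that list ran from -1.12 to 0.89, and a link of the list to Bnip3 was not tested. Targets of NRF2, the antioxidant factor that induces Sqstm1, with 11 of 14 measured, had 0 of 19 probe sets past the limma test and 0 at an unadjusted p under 0.05, with a median of -0.03. In it the glutamate-cysteine ligase subunit Gclc had a change of -0.33 and the thioredoxin reductase Txnrd1 of -0.26 (limma, adjusted p = 0.502 and 0.518). Acute phase genes, with 22 of 22 measured, had 0 of 31 probe sets past the limma test, 1 higher and 8 lower at an unadjusted p under 0.05, and a median of -0.37, or -0.14 without control 2 and -0.60 without control 1. Saa4, a serum amyloid, had a change of -0.93 and Hamp, which encodes hepcidin, of -1.29 (limma, adjusted p = 0.0853 and 0.104).

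**Figure D4:**
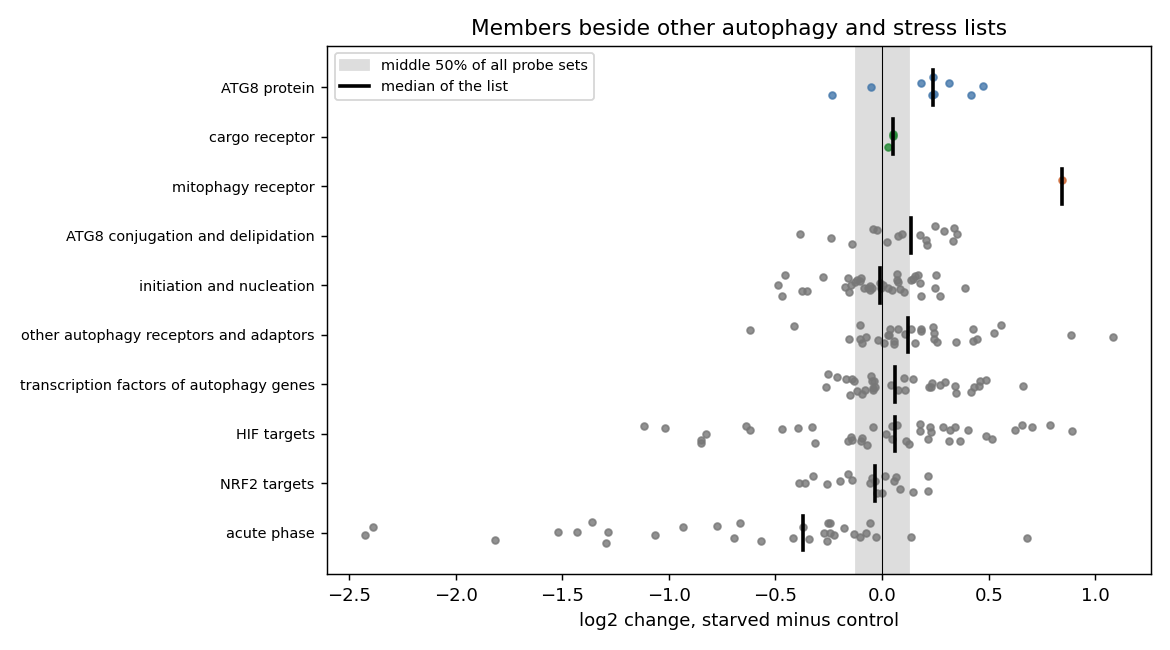
Log2 change, starved minus control, of every probe set (points) in the members' 3 roles and in 7 lists of related genes, with list medians (black bars) and the middle 50% of all probe sets (grey band, -0.12 to 0.13). The ATG8 median of 0.24 and the single Bnip3 point at 0.84 lie above the band, the cargo receptors inside it and the acute phase median of -0.37 below it.

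The genes whose profile over the 4 arrays lay nearest to that of Bnip3, by Euclidean distance of centred log2 values, were Crebrf at 0.0507, Rbbp6 at 0.0628, Cd24a at 0.0841, Hnrnpu at 0.0908 and Baiap2l1 at 0.0947. With 4 arrays, many probe sets can take a similar order, and the distances are given as a description.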

How the data were processed

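The deposited values are log2 signals from RMA (affy), as the submitters' processing notes name them. Versions, settings and joint normalization of the arrays are not stated there. Where RMA brings the probe intensities of all arrays to 1 distribution, a change shared by all transcripts cannot be seen. The medians of the deposited values were 6.71 to 6.74. The 64 Affymetrix controls were left out, which left 22626 probe sets. Of these, 20380 had 1 gene symbol, 691 several and 1555 none, and 20351 of the single symbols were brought up to date by Entrez identifier from RefSeq (GRCm38.p6). Starved and control arrays were compared per probe set by limma 3.58.1 (lmFit, eBayes; R 4.3.3), two-sided and without covariates, with Benjamini-Hochberg adjustment over all probe sets at a threshold of 0.05. The test was checked on simulated arrays drawn from limma's own error model, with changes larger than that of any member. That check does not cover changes of the members' size or an array that stands apart, such as control 2. Prior degrees of freedom were 3.83 and total degrees 5.83, so the spread of each probe set was largely borrowed. The small number of arrays is a limit on precision. The members, lists and motifs were chosen with earlier results of these data known. Every member probe set is named, with the 2 genes of smallest p in each related list and the 5 nearest profiles to Bnip3. Alternatives were other scalings, a filter on the lowest 40%, 1 value per gene, removal of _x_at and _s_at probe sets, other eBayes settings, a replicate block and each array left out. Counting the shared Bnip3l probe sets was added after the data were seen.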

Additional observations from a re-analysis of the deposited data

How the results depend on the processing

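No member probe set passed the limma test under any of 15 alternatives, where 1 to 4 had an unadjusted p under 0.05. The compared values kept their direction in 164 of 168 cases. In many of these the direction could not change. The eBayes settings, the replicate block and the choices of probe sets leave the change of a probe set as it was. The 4 exceptions arose with 1 array left out, where Nbr1 1451897_a_at ranged from -0.091 to 0.15 (-0.028 without control 2), Gabarapl2 from -0.16 to 0.057 and Gabarapl1 1416418_at from -0.074 to 0.54. Bnip3 ranged from 0.58 to 1.10 with 1 array left out. With 1 probe set per gene, which leaves 8 values, 1 member had an unadjusted p under 0.05 and the members' median was 0.12, and with probe sets averaged by gene these were 2 and 0.12. With 1 array left out the count was 1 to 4 and the median 0.089 to 0.25, and the lone array left in a group takes its spread from the other one. Over all probe sets the count past the test, 13, was 8 with 1 probe set per gene, 23 without _x_at and _s_at probe sets, 44 with robust eBayes, 59 with trend and robust settings, and 2 to 57 with 1 array left out. Of the probe sets in related lists, 0 passed, 1 passed with trend and robust settings (Saa4), and 0 to 5 with 1 array left out, the 5 being acute phase probe sets called without control 1. The cause of these differences was not tested. With the replicate number as a block, 0 of all probe sets passed in limma and 4 member probe sets kept an unadjusted p under 0.05. Deviations of same-numbered arrays correlated at 0.04, the labels name nothing the numbers share, and the block is therefore given here alone.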
